A study of Mus musculus with 18 samples.

Results

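The genes described here are 10 established targets of the transcription factor p53, *Cdkn1a*, *Mdm2*, *Ccng1*, *Trp53inp1*, *Zmat3*, *Phlda3*, *Sesn2*, *Bbc3*, *Perp* and *Aen*, taken by name from the 18659 genes of the deposited table. All 10 were listed, and each was followed across 16 RNA-seq libraries of mESCs (mouse embryonic stem cells) and compared with the scrambled siRNA library of the same replicate set. Against scrambled siRNA, *Cdkn1a* was 1.41-fold higher after 3p siRNA and *Ccng1* was 1.36-fold higher after SATS siRNA. These were the only member calls against scrambled siRNA in the limma fit of all 5 siRNA groups of sets 2 and 3, and both were made when the set entered the fit as a block and not without it. Other blocked fits, given below, called further members. Over 10 libraries of sets 2 and 3 the correlations between pairs of members ran from −0.85 to 0.78, and 27 of 45 were positive. For SP over all 3 sets the 10 fitted differences from scr were all above 0, and limma called 0 members and 0% of genes.

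p53 is held at a low level in unstressed cells because the product of its own target *Mdm2* marks it for degradation. DNA damage, loss of ribosome assembly and other stresses interrupt this loop, and p53 then switches on genes that stop the cell cycle, repair DNA, change metabolism or start apoptosis. Pluripotent mouse cells are known to carry a high level of *Trp53* mRNA and p53 protein, and *Cdkn1a* is known to be expressed at a low level in them.

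The cells were male E14 mESCs grown in serum with LIF on gelatin, and the siRNAs were directed to *Stag1*, which encodes a subunit of cohesin. All transfected groups had been treated for 24 h. They received scrambled siRNA (scr), SP (a commercial pool of siRNAs), 3p (a subset of the siRNAs of SP, toward the 3′ end of *Stag1*), 5p (a custom siRNA toward the 5′ end) or SATS (endonuclease-prepared siRNA to the 5′ UTR of transcripts from an upstream start). In set 1 there were 1 scr and 3 SP libraries (1a to 1c), and in sets 2 and 3 each of scr, SP, 3p, 5p and SATS had 1 library per set. Set 2 also held 1 library of untreated cells and set 3 held 1 of cells given siRNA to luciferase, a gene that mouse cells lack. The paper lists the luciferase control as enzymatically prepared siRNA, the kind of reagent of SATS and not of scr, SP, 3p or 5p. Comparisons of SATS with scr or SP thus differ in reagent as well as target, and these cannot be told apart. A set is the replicate number in the labels, which do not say that the cultures were separate, so p-values measure the spread between these samples. SP and 3p share siRNAs, and all comparisons with scr share its libraries.

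*Stag1* was at 17.3% to 32.8% of scr in the 9 libraries of SP, 3p and 5p and at 49.7% and 50.5% in the pair of SATS libraries. Values are reads per gene divided by 1 size factor per library, here called normalized reads. Set 1 held 9023224 to 14040830 reads on genes, of which *Rn45s* took 69.2% to 79.1%, and the 12 libraries of the other sets held 32137666 to 45660840, of which it took 14.7% to 23.9%. All 8 mESC markers of a fixed list were present, led by *Pou5f1*. A list of 7 fibroblast markers, led by *Col1a1*, summed to 83.6 to 459 normalized reads in set 1, 2595 to 5693 in set 2 and 341 to 551 in set 3, the highest being the untreated library. Set 2 had the most fibroblast marker RNA, and 4 of the 7 markers were at 0 in scr of set 1. Their part in the differences between sets was not tested. In bulk RNA, fewer cells of a type and less RNA per cell cannot be told apart.

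p53 binds DNA as a tetramer on a pair of half-sites of 10 bases, each with a core that starts with C and ends with G. RefSeq promoter windows (GRCm38.p6, 250 bases before to 50 after a gene's start) were held for 7 of the 10 genes, all but *Trp53inp1*, *Zmat3* and *Perp*. They were searched for pairs of the p53 half-site consensus with no spacer, all core C and G bases kept and at most 3 mismatches in 20 bases. The motif is its own reverse complement, so 1 search covers both strands. The best pair in each of the 4 genes with a match is shown, and those of *Cdkn1a* and *Ccng1* have 1 mismatch each. A link between these pairs and the differences described below was not tested. Each is written 5′ to 3′ on the strand of the gene, and the capitals mark the 4 core bases of each half-site.
Cdkn1a: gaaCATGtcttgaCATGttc
Ccng1: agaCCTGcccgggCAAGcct
Bbc3: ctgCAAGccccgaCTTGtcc
Aen: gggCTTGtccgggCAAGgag
The *Cdkn1a* pair is at chr17:29090928-29090947 on the plus strand and starts 51 bases before a RefSeq start of the gene. The *Ccng1* pair is at chr11:40755462-40755481 on the minus strand and starts 195 bases before a RefSeq start of the gene. The *Bbc3* pair, at chr7:16309486-16309505 on the plus strand, and the *Aen* pair, at chr7:78895937-78895956 on the plus strand, have 3 mismatches each. Of all 27025 genes with a window, 22 (0.0814%) held a pair with at most 1 mismatch and 441 (1.63%) held one with at most 3. The windows of *Mdm2*, *Phlda3* and *Sesn2* held none, which says only that these letters are not in these windows. No binding was measured.

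Per kilobase of exon, over the 10 libraries of scr, SP, 3p, 5p and SATS in sets 2 and 3, *Ccng1* was the most abundant member at 1645 to 2555 normalized reads per kb, and its range did not overlap that of any other. *Bbc3* had the lowest mean, with a range of 155 to 230. This range was apart from that of *Aen*, the next in order, but overlapped that of *Cdkn1a* (202 to 476). The 8 genes between them overlapped each with its neighbour in the order *Sesn2*, *Perp*, *Trp53inp1*, *Phlda3*, *Mdm2*, *Zmat3*, *Cdkn1a* and *Aen*, from a mean of 665 per kb down to 285. *Trp53*, the gene of p53 itself, had 1141 per kb in scr of set 2 and 1104 in scr of set 3.

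Several members differed more between replicate sets than between siRNAs. *Perp*, which encodes a membrane protein of desmosomes that takes part in p53-dependent apoptosis, had 141 normalized reads in scr of set 1 against 1401 in set 2 and 914 in set 3. *Cdkn1a* had 382 in scr of set 1, 1316 in set 2 and 718 in set 3, and *Phlda3*, which encodes an inhibitor of Akt signalling, had 241, 909 and 658. Between scr of sets 1 and 2, 4 of 10 members differed by more than 2-fold, where 17.0% of 11059 genes with a mean of at least 50 did. Between scr of sets 2 and 3 none did, against 3.63% of genes. Sets have 1 scr library each, so this has no replicate check, and set, depth and *Rn45s* share cannot be told apart between set 1 and the others.

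**Figure D1:**
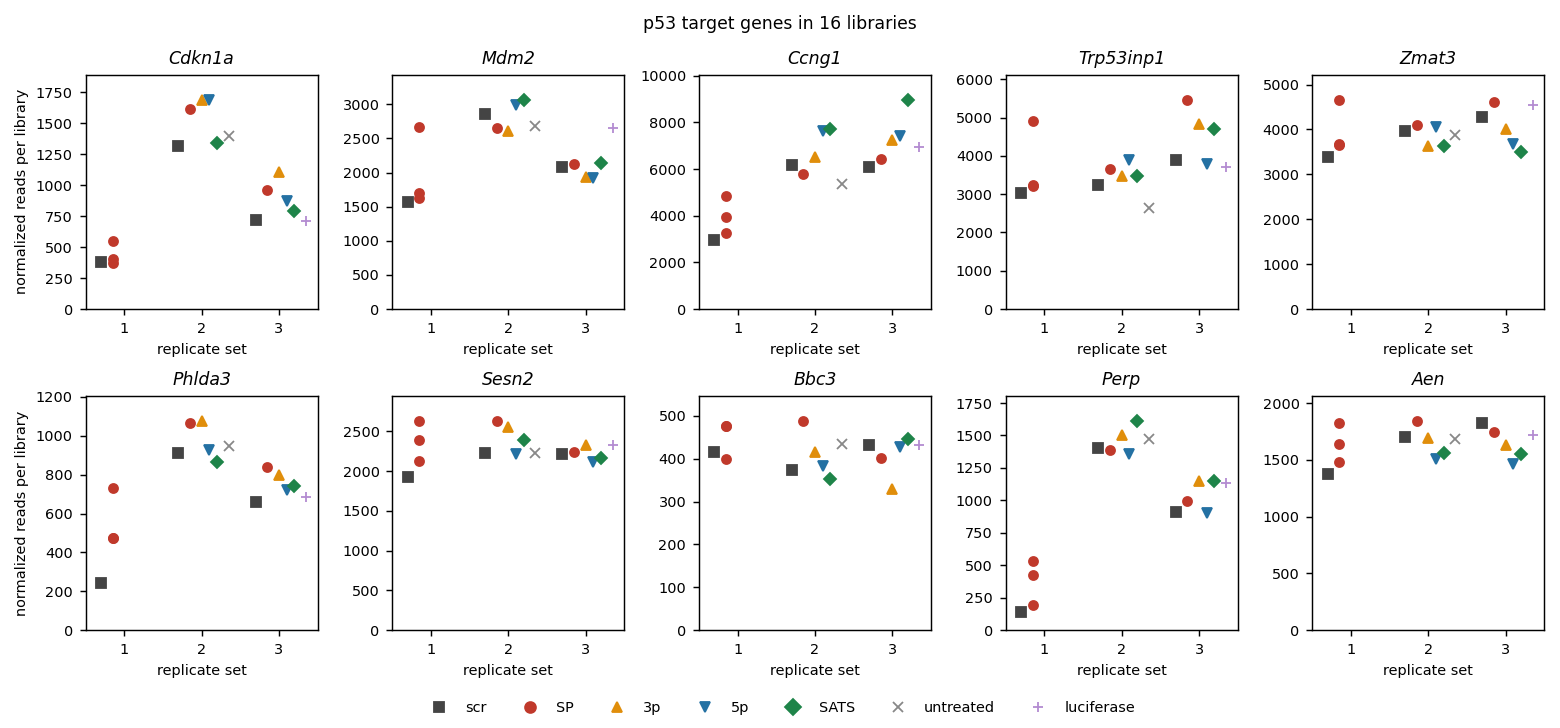
Normalized reads (reads divided by the size factor of the library, linear axis from 0) of each p53 target gene in the 16 libraries, by replicate set; each point is 1 library and its shape and colour give the treatment. The sets stand apart for *Cdkn1a*, *Phlda3* and *Perp*, while within sets 2 and 3 the red, orange and blue points of *Cdkn1a* lie above the scr square and the green SATS points of *Ccng1* are the highest.

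*Cdkn1a* (chr17:29090976-29100727 on the plus strand) encodes p21, the inhibitor of cyclin-dependent kinases through which p53 arrests the cell cycle. In set 2 it had 1316 normalized reads in scr, 1619 in SP, 1692 in 3p, 1690 in 5p and 1344 in SATS, and in set 3 it had 718, 963, 1104, 876 and 791 in that order. All 8 knockdown libraries were above the scr library of their own set, but the groups overlapped across sets because scr of set 2 was above every library of set 3. In set 1 the scr library had 382 and the SP libraries had 371, 405 and 548, so that 1 of the 3 was below scr. These set 1 values rest on 57 to 126 reads. An annotated transcript of no assigned type on the other strand shares 273 exonic bases with *Cdkn1a*, and its reads would be apart only where the counting used strand, which the methods state for paired-end samples.

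Over sets 2 and 3, the fitted log2 difference of *Cdkn1a* from scr was 0.49 for 3p (95% interval 0.31 to 0.68), 0.36 for SP (0.18 to 0.55) and 0.32 for 5p (0.14 to 0.51), all with the set as a block. Only that of 3p passed, with an adjusted p of 0.0378 in limma with the block, beside 0.0747 for SP and 0.0677 for 5p. DESeq2 with the block called *Cdkn1a* for SP (adjusted p of 0.0331) and 5p (0.0476) as well, as did blocked limma with the untreated and luciferase libraries added to scr (0.0219 and 0.0183). The untreated cells received no siRNA, so calls with these added controls do not separate transfection from knockdown. The fitted difference of *Cdkn1a* for SATS was 0.09. Without the block the standard error was 0.46 and no adjusted p was under 0.99. The call for 3p was lost in 3 of the 4 blocked limma fits without 1 of its libraries. The log2 difference was 0.54 without scr of set 2 (adjusted p of 0.226), 0.44 without scr of set 3 (0.439) and 0.38 without 3p of set 3 (0.37). Without 3p of set 2 it was 0.60 and the call held (0.0197). The call was also lost with no filter on low genes, at an adjusted p of 0.249 in limma. The difference of *Cdkn1a* between 5p and 3p was −0.17 (−0.35 to 0.02) and that between SATS and SP was −0.28 (−0.46 to −0.09), and neither passed in limma with the block (adjusted p of 0.373 and 0.0603).

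**Figure D2:**
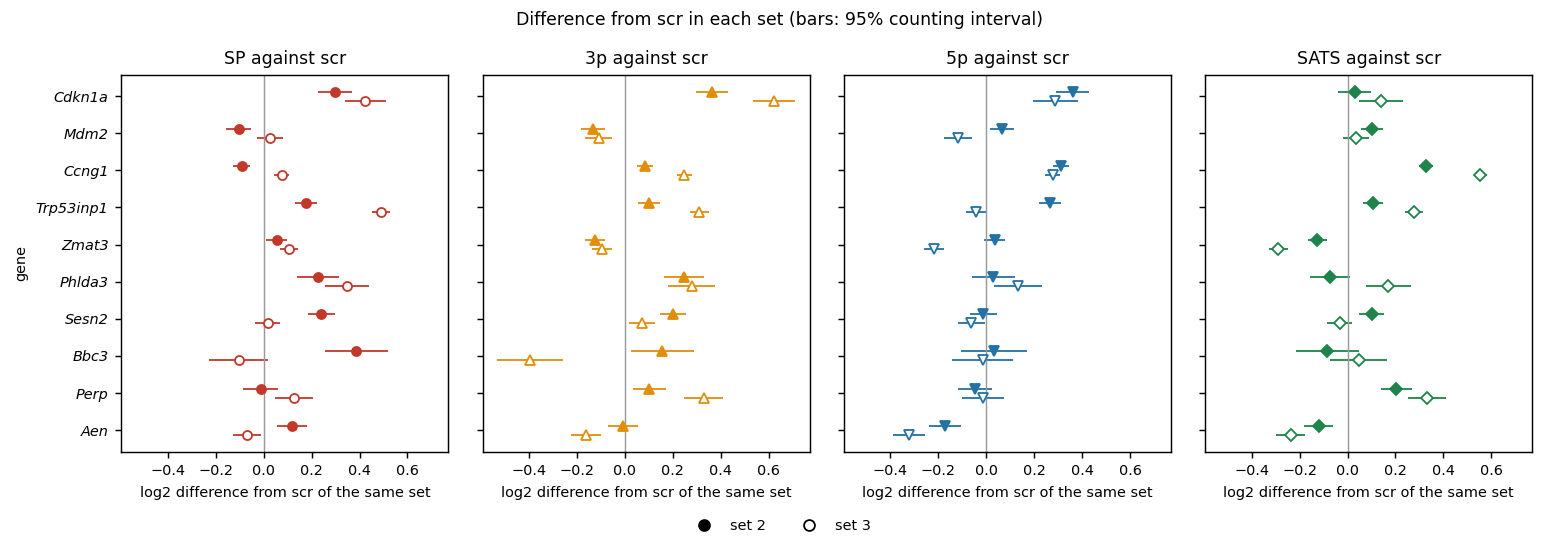
Log2 difference of each p53 target gene from the scr library of the same set, for SP, 3p, 5p and SATS siRNA; filled symbols are set 2, open symbols are set 3 and bars are 95% intervals that cover counting error only. *Cdkn1a* lies right of 0 in all 4 panels, *Ccng1* lies furthest right in SATS at 0.33 and 0.55, and *Bbc3* changes side between sets in every panel.

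*Mdm2* and *Ccng1* act back on p53. *Mdm2* encodes the ubiquitin ligase that removes p53, and *Ccng1* encodes cyclin G1, which recruits a phosphatase that activates Mdm2. *Ccng1* (chr11:40748552-40755311 on the minus strand) had 6162 normalized reads in scr of set 2 and 6109 in scr of set 3, a ratio of 1.01 between sets. It had 7735 and 8975 in the SATS libraries, 7646 and 7400 in 5p, 6528 and 7256 in 3p and 5778 and 6434 in SP. Both SATS and both 5p libraries were above every scr and SP library of these sets, while SP overlapped scr. The fitted log2 difference from scr was 0.44 for SATS (0.26 to 0.62; adjusted p of 0.0209 in limma with the block and over 0.99 without it) and 0.29 for 5p (0.12 to 0.47; adjusted p of 0.083 in limma with the block). For 5p it passed in DESeq2 with the block (0.0495) and in blocked limma with the untreated and luciferase libraries added to scr (0.0239). *Ccng1* was also 0.45 higher in SATS than in SP (0.27 to 0.63; adjusted p of 0.00704 in limma with the block, 0.618 without it). The SATS call against scr was lost in the blocked limma fit without scr of set 2 (adjusted p of 0.0913), scr of set 3 (0.285) or SATS of set 3 (0.361), at log2 differences of 0.51, 0.38 and 0.37, and with no filter on low genes (0.164). It was kept without SATS of set 2 (0.0108, at 0.52). The call against SP was lost in the blocked limma fit without SP of set 2 (adjusted p of 0.0884) or SATS of set 3 (0.127) and with no filter (0.0613), and kept without SATS of set 2 (0.00705) or SP of set 3 (0.0418). The fibroblast marker sum was 3673 in SATS of set 2 and 2862 in scr of that set, and 536 and 551 in set 3. The part of these cells in the difference in *Ccng1* was not tested.

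*Mdm2* had 2856 normalized reads in scr of set 2 and 2657, 2605, 2989 and 3067 in SP, 3p, 5p and SATS. In set 3 the corresponding values were 2086, 2125, 1933, 1924 and 2136. Knockdown libraries were on both sides of scr in each set, and the fitted log2 differences ran from −0.12 for 3p to 0.07 for SATS. In set 1, *Mdm2* had 1567 in scr and 1631, 2666 and 1699 in SP 1a, 1b and 1c, so that 1b stood apart.

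*Trp53inp1*, *Zmat3*, *Phlda3* and *Sesn2* act beside the arrest and death branches. *Trp53inp1* encodes a cofactor that p53 induces and that promotes its phosphorylation. It had 3232 normalized reads in scr of set 2 and 3652, 3465, 3890 and 3479 in SP, 3p, 5p and SATS, and 3893 in scr of set 3 against 5468, 4824, 3776 and 4715. SP, 3p and SATS were above scr in both sets and 5p only in set 2. The fitted difference for SP was 0.33 (0.08 to 0.58; adjusted p of 0.235 in limma with the block, and 0.0388 with the untreated and luciferase libraries added to scr). With these controls added it was 0.42. The untreated library of set 2 had 2626 and the luciferase library of set 3 had 3718. Each was below scr, SP, 3p, 5p and SATS of its set. *Phlda3* had 909 in scr of set 2 and 1064, 1078, 928 and 865 in SP, 3p, 5p and SATS, and in set 3 it had 658 and 839, 799, 722 and 741. The SP and 3p libraries were the highest of their set in both sets, at fitted differences of 0.29 (0.11 to 0.46) and 0.26 (0.09 to 0.44) that did not pass (adjusted p of 0.143 and 0.24 in limma with the block).

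*Zmat3* encodes an RNA-binding zinc finger protein. It had 3956 and 4280 normalized reads in scr of sets 2 and 3 and 3627 and 3504 in SATS, below all scr and SP libraries of these sets. It had 3627 and 4005 in 3p, below scr in both sets and level with SATS in set 2. In 5p it had 4052 and 3676, above scr in set 2 and below it in set 3. The difference of SATS from SP was −0.29 (−0.47 to −0.10), at an adjusted p of 0.0503 in limma with the block, and it passed in the blocked fit of DESeq2 (0.0397). *Sesn2* encodes sestrin 2, which restrains mTORC1 under metabolic stress. It had 2230 and 2216 in scr, 2635 and 2243 in SP, 2560 and 2325 in 3p, 2212 and 2121 in 5p and 2391 and 2167 in SATS, and its fitted differences from scr ran from −0.04 for 5p to 0.13 for SP and 3p.

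*Bbc3*, *Perp* and *Aen* belong to the apoptosis branch. *Bbc3* encodes PUMA, which neutralises the survival proteins of the Bcl-2 family. It had 374 and 432 normalized reads in scr of sets 2 and 3, 488 and 402 in SP, 416 and 329 in 3p, 382 and 428 in 5p and 352 and 447 in SATS. Each of the 4 knockdowns was above scr in 1 set and below it in the other. *Perp* had 1401 and 914 in scr, 1388 and 997 in SP, 1503 and 1148 in 3p, 1356 and 905 in 5p and 1613 and 1149 in SATS. SATS was the highest of these libraries in both sets, in set 3 with 3p next to it. Its fitted difference was 0.27 (0.10 to 0.44), with an adjusted p of 0.0843 in limma with the block. The luciferase control of set 3 had 1130, above scr by 0.31 on the log2 scale where SATS of that set was above by 0.33. The untreated library of set 2 had 1475, above scr by 0.07 where SATS was above by 0.20. *Aen*, which encodes an exonuclease that acts in apoptosis, had 1700 and 1829 in scr and 1509 and 1464 in 5p, which was the lowest in both sets. It had 1845 and 1744 in SP, 1690 and 1634 in 3p and 1563 and 1551 in SATS. 3p and SATS were thus below scr in both sets too. The fitted difference for 5p was −0.25 (−0.41 to −0.09; adjusted p of 0.107 in limma with the block, and 0.0325 with the untreated and luciferase libraries added to scr). For SATS it was −0.18 (−0.34 to −0.02; adjusted p of 0.207 in limma with the block).

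Counted over the 10 genes, limma without the block called 0 members in each of the 7 comparisons, where it called 0% of all genes for SP over 3 sets, for SATS against scr and for 5p against 3p, 0.00606% for SP and for 3p and 0.0121% for 5p and for SATS against SP. Unadjusted p-values under 0.05 without the block numbered 2 for 5p (3.63% of all genes), 1 for SATS (3.94%) and 3 for SATS against SP (6.81%), and 0 in the other comparisons (0.526% to 4.09%), and edgeR and DESeq2 without the block called 0 members too. With the block, limma called 0 members for SP (0.746% of 16490 genes were called), 1 for 3p (0.285%), 0 for 5p (2.37%), 1 for SATS (2.64%), 0 for 5p against 3p (3.26%) and 1 for SATS against SP (9.42%). Those with an unadjusted p under 0.05 with the block numbered 3, 3, 3, 4, 4 and 6 in this order, where 10.4% to 24.8% of all genes had one. With the block, edgeR called the same number of members as limma in each of these comparisons, at 0.884%, 0.264%, 2.57%, 3.62%, 3.45% and 11.1% of genes. DESeq2 with the block called 1 member for SP (1.23% of genes), 1 for 3p (0.813%), 2 for 5p (2.92%), 1 for SATS (4.85%), 0 for 5p against 3p (3.35%) and 2 for SATS against SP (9.36%). Blocked limma with the untreated and luciferase libraries added to scr as controls called 2 for SP (2.32%), 1 for 3p (1.31%), 3 for 5p (6.71%) and 1 for SATS (10.7%).

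**Figure D3:**
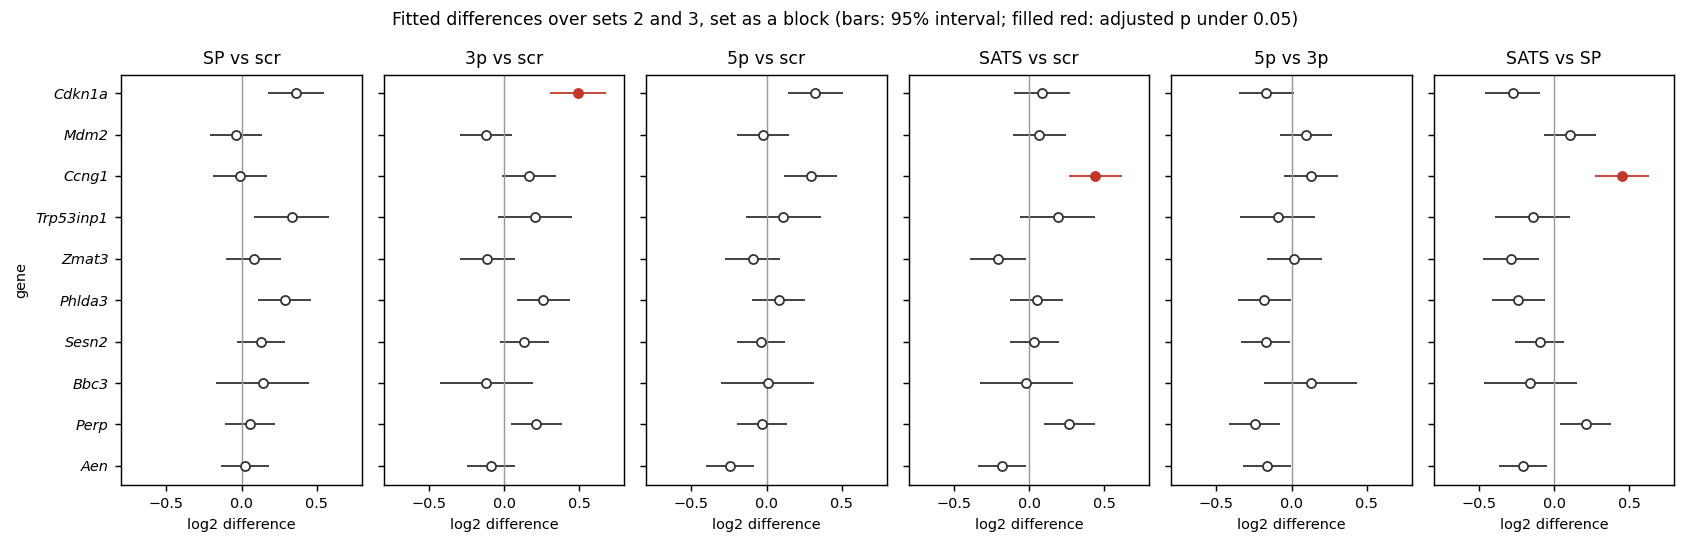
Fitted log2 differences of the 10 genes over sets 2 and 3 from limma with the set as a block, for each siRNA against scr and for 5p against 3p and SATS against SP; bars are 95% intervals and filled red points have an adjusted p under 0.05. The 3 filled points are *Cdkn1a* in 3p at 0.49 and *Ccng1* in SATS at 0.44 against scr and 0.45 against SP.

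The median log2 difference of the 10 genes from scr was 0.10 for SP, 0.15 for 3p, −0.01 for 5p and 0.06 for SATS, beside medians over all genes between −0.004 and 0.012. SP was above scr in both sets for 5 members and below in both for 0, 3p for 6 and 3, 5p for 3 and 3, and SATS for 5 and 2. Among 11019 genes with a mean of at least 50, 26.3% to 36.3% were above scr in both sets, depending on the siRNA, and 30.1% to 34.8% were below in both. *Cdkn1a* was the 1 gene of the 10 that was above scr in both sets with all 4 siRNAs. The share of all genes that were so was not counted, and these differences share the scr library of each set. In SATS of set 2 the log2 difference of *Cdkn1a* was 0.03, with a counting interval of −0.04 to 0.10. It was 0.09 in the untreated library of that set. In set 3 it was 0.14 in SATS (0.05 to 0.23) and −0.02 in the luciferase library.

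SP was also compared with scr over all 3 sets, with libraries 1a, 1b and 1c averaged. All 10 fitted differences were above 0, with a median of 0.17 against 0.01 over 15970 genes, and 0 members and 0% of genes were called in limma with or without the block. With the block 3 members and 5.85% of genes had an unadjusted p under 0.05, and edgeR and DESeq2 called 0 members (0.279% and 0.3% of genes). The differences were 0.60 for *Phlda3* (0.13 to 1.06 with the block), 0.33 for *Trp53inp1* (0.13 to 0.53) and 0.31 for *Cdkn1a* (0.09 to 0.53), each at an adjusted p of 0.759 in limma with the block, and 0.52 for *Perp*, whose unadjusted p was not under 0.05. Without set 1 the blocked fit of these libraries called *Cdkn1a* and *Trp53inp1* (limma adjusted p of 0.0113 and 0.011 without scr of set 1, where 3.03% of genes were called). This fit left 1 residual degree of freedom per gene. Its p-values therefore rest on the spread shared over all genes and do not measure the spread of each gene in these samples. The fit that shares its spread over all siRNAs of sets 2 and 3 called neither gene.

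Within set 1 the SP libraries were above scr for 8, 10 and 10 of the 10 genes in 1a, 1b and 1c, where 49.9%, 49.2% and 51.1% of 10910 genes were. *Phlda3* was 2.33-fold and *Perp* 2.72-fold higher in the mean of the SP libraries (561 ± 149 and 382 ± 173, SD, n = 3) than in the 1 scr library, at 241 and 141. These scr values rest on 36 reads of *Phlda3* and 21 of *Perp*. The *Perp* values in SP were 193, 421 and 532, all below the lowest value in sets 2 and 3, 905. The 8 other members were 1.08-fold to 1.36-fold higher in this mean. In the same libraries the summed mESC markers were 64140 normalized reads in scr and 36369 to 52419 in SP, and 4 neural markers summed to 750 in scr and 954 to 2537 in SP, with none of these 12 genes at 0 in scr or in all 3 SP libraries. The 6 primitive endoderm markers summed to 415 and 80.5 to 357, and the 4 mesoderm markers to 100.4 and 65.8 to 354. Their part in the set 1 differences was not tested. The 3 SP libraries share that scr library, and with 1 scr library there is no test.

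The 2 other control libraries give the distance between controls. In set 2 the untreated cells had 1397 normalized reads of *Cdkn1a*, between scr and the SP, 3p and 5p libraries. Their *Ccng1*, at 5355, and *Trp53inp1*, at 2626, were below all 5 siRNA libraries of the set. In set 3 the luciferase library had 709 of *Cdkn1a*, next to scr at 718 and below all knockdowns. Its *Mdm2*, at 2645, was above all 5 other siRNA libraries, and its *Ccng1*, at 6935, was above SP and scr and below 3p, 5p and SATS. The luciferase *Ccng1* value thus lay outside the pair of scr values, and the difference between the scr and luciferase libraries was of the size of some of the knockdown differences. The median log2 difference of the 10 genes from scr was −0.004 in the untreated and 0.07 in the luciferase library.

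*Trp53* itself had 4614 and 4464 normalized reads in scr of sets 2 and 3 and 5477 and 4720 in SP, 5057 and 4566 in 3p, 4730 and 4121 in 5p and 4846 and 4191 in SATS. SP and 3p were above scr in both sets, and 5p and SATS were above it in set 2 and below it in set 3. The fitted log2 difference was 0.16 for SP (0.01 to 0.32) and 0.08 for 3p (−0.08 to 0.24), and none of the comparisons passed (adjusted p of 0.383 for SP in limma with the block). The mRNA level does not measure p53 protein, which is mainly controlled by its stability.

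A wider list of 49 genes of the p53 network (family members, regulators and other targets) was used as the surrounding pathway, and 48 were tested. With the block, limma called 5 higher and 0 lower for SP, 2 and 0 for 3p, 1 and 1 for 5p and 3 and 2 for SATS, and without the block it called 0 in each. These counts are out of 48, where 0.746%, 0.285%, 2.37% and 2.64% of all genes were called with the block for SP, 3p, 5p and SATS. For SP over all 3 sets, with set 1 included, 0 of the 48 were called in limma with the block. The 5 of SP in sets 2 and 3 were *Ccng2* (0.77) and *Btg2* (0.74), which slow proliferation, *Dcxr* (0.50), a reductase of sugar metabolism, *Ddit4* (0.47), an inhibitor of mTORC1, and *Ei24* (0.37), a gene induced in p53-dependent apoptosis, as fitted log2 differences. *Btg2* and *Dcxr* were also called for 3p, at 0.67 and 0.50. *Btg2* had 1228 and 826 normalized reads in scr of sets 2 and 3, 1768 and 1613 in SP, 1640 and 1578 in 3p, 1125 and 816 in 5p and 1284 and 1163 in SATS. The luciferase control of set 3 had 1179, above scr by 0.51 on the log2 scale, and the untreated library of set 2 had 1132. Its fitted difference from scr in 5p was −0.07 and did not pass, and it was 0.75 lower in 5p than in 3p on the log2 scale (adjusted p of 0.00247 in limma with the block). *Ccng2* went the other way in set 1, with 368 in scr and 199 to 221 in the SP libraries.

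For SATS the 5 calls were *Fas* (0.93), the death receptor, *Rps27l* (0.48) and *Rpl5* (0.47), both of ribosomal protein families, and, lower, *Trp73* (−0.57), which encodes the p53 relative p73, and *Eda2r* (−0.54), a receptor of the TNF family. *Fas* was near the lower limit of the table, with 16.8 and 8.3 normalized reads in scr and 33.9 and 16.2 in SATS. Its log2 difference from scr in sets 2 and 3 was 0.97 and 0.89 in SATS and 1.02 and 0.61 in SP. It was 0.47 and 0.69 in 3p and 0.40 and 0.32 in 5p, so the higher level was not particular to SATS. The untreated library of set 2 was above scr by 0.47 and the luciferase library of set 3 by 0.03. In set 1 *Fas* had 6.7 in scr and 0 to 3.2 in the SP libraries. *Eda2r* had 1506 and 1495 in scr, 963 and 1111 in SATS and 1467 to 1962 in SP, 3p and 5p, so that SATS was apart from all others of these sets. For 5p the calls were *Trp53i11* (0.51), induced by p53, and *Epha2* (−0.40), an ephrin receptor.

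**Figure D4:**
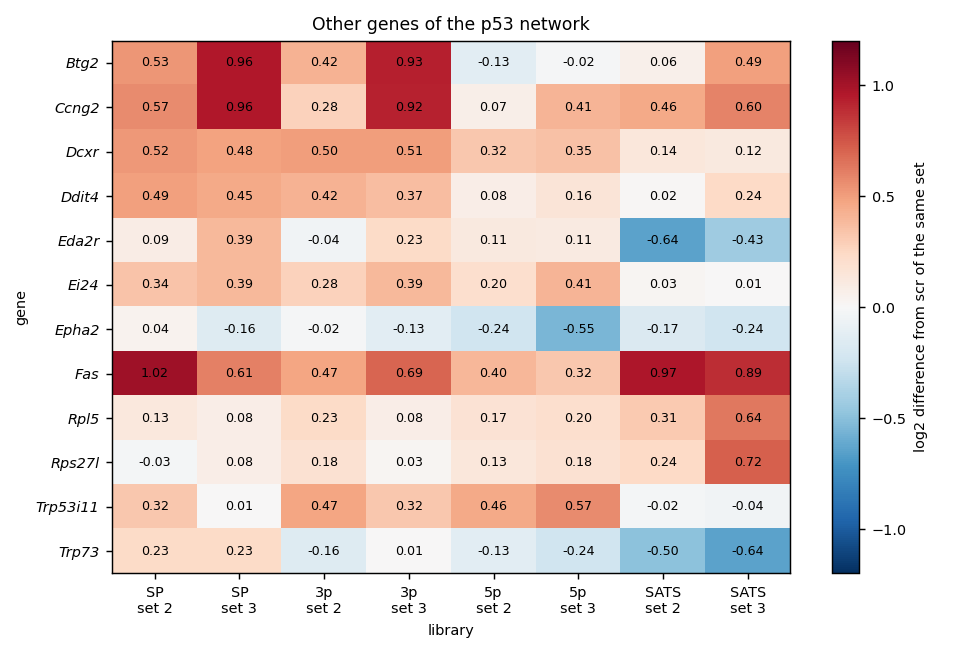
Log2 difference from the scr library of the same set for the 12 genes of the wider p53 network that passed an adjusted p of 0.05 with the block in at least 1 comparison with scr; columns are the 8 knockdown libraries of sets 2 and 3 and each cell gives its value. *Btg2* and *Ccng2* reach 0.96 in SP of set 3, and *Eda2r* and *Trp73* are lowest in the SATS columns.

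With each gene centred on the mean of its set, the mean of the 10 genes over the 10 libraries of sets 2 and 3 was lowest in scr of set 2 (−0.07) and in 5p of set 3 (−0.08) and highest in SP of set 3 (0.08). Of the 45 pairs of members, 27 had a positive Pearson r, with a median of 0.16. *Cdkn1a* and *Phlda3* were the most alike (0.78), and *Ccng1* ran opposite to *Aen* (−0.85) and *Zmat3* (−0.71). *Trp53inp1* was the member closest to the mean of the other 9 (0.82), and *Ccng1* the farthest (−0.28). Across the same libraries the r of the members with *Stag1*, whose level the siRNAs set, ran from −0.91 for *Cdkn1a* to 0.47 for *Mdm2*. It was −0.76 for *Phlda3*, −0.50 for *Trp53inp1*, 0.21 for *Aen* and −0.05 for *Ccng1*. A gene that differs between scr and the knockdowns has such an r by design, and the share of all genes with one this strong was not counted. Among 11009 other genes with a mean of at least 50, those most like the mean of the 10 were *Nudt11* (0.96), *Pnrc1* (0.95), *Fut4* (0.94), *Rab43* (0.93) and *Npepl1* (0.93). The 10 points share their libraries, their size factors and the scr of each set, and the r values are descriptions.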

How the data were processed

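RNA depleted of rRNA was sequenced from serum-grown mESCs. Reads were aligned to mm10 (hisat2, run under Nextflow) and counted by featureCounts. The authors deposited normalized signal values, reads per gene over a DESeq2 (1.14.1) size factor for all sets, and for set 1 edgeR (3.16.5) CPM based on effective library sizes, also handled as signal. Dividing the deposited signal of all sets by the value of 1 read gave whole reads for 100% of values (tolerance 0.001), so counting errors and count models could be run. PCR reads are not independent molecules, and 95% intervals per library cover counting error only. The 2 samples from 2i medium were not analysed here.

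Linear models of log2(value + 1) were run in limma 3.58.1 (lmFit, eBayes with trend) in R 4.3.3 for genes whose values summed to 10 or more. The set was left out of the model or entered as a block, and the threshold was 0.05 after Benjamini-Hochberg adjustment over all genes. The panel fit used 10 libraries and 16490 genes, and SP over 3 sets used 6 samples, with 1a to 1c averaged, and 15970 genes. On this scale the fold change of a low gene is understated. The numbers pair the samples: same-numbered deviations correlated at 0.86 in the panel (0.81 to 0.93, 20 pairs) and 0.80 for SP (0.77 to 0.82, 3 pairs), the replicate number coming from the labels. In the panel the deviations of set 3 are those of set 2 with the sign turned. Each correlation is thus counted 1 time per set, and the 20 pairs are not separate values. Alternatives were the block, pseudocounts of 10 and 0.1, no filter or a mean of at least 50, edgeR 4.0.16 and DESeq2 1.42.0 on the recovered reads, each library left out, single SP libraries of set 1 and the other controls. The scripts for limma, edgeR and DESeq2 were tested on simulated data.

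The members and lists were chosen with earlier results of these data known. The text names the 10 genes, *Stag1*, *Trp53*, at most 5 called network genes per comparison with scr by size, and the 5 genes most like the members. Of 50 network genes 1 was not matched. Exonic lengths and coordinates come from GENCODE for GRCm38, and promoter windows from RefSeq.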

Additional observations from a re-analysis of the deposited data

Results flagged for a closer look

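SP library 1b of set 1 stood apart from the 4 other SP libraries for 2 of the 10 genes. Its log2 difference from scr was 0.77 for *Mdm2*, where the next highest was 0.12, and 0.46 for *Zmat3*, where the next highest was 0.12. The gap to the nearest library exceeded the 95% critical value of Dixon's test for 5 samples, which about 1 in 20 groups exceeds by chance. The 5 libraries include 3 that share 1 scr library.

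The difference between SATS and SP in *Ccng1*, 0.45 on the log2 scale, passed the test of the difference itself with the set as a block (adjusted p of 0.00704 in limma) and not without it (0.618). It had the same sign in both sets.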

How the results depend on the processing

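The block decided the calls. With it, 1 member was called for 3p, for SATS and for SATS against SP in limma, and this count of 1 held in these comparisons at pseudocounts of 10 and 0.1 and in edgeR with the block, where no fit without the block called any. With the block and a mean of at least 50 the count was 1 for 3p and SATS and 2 for SATS against SP. The shares of all genes called at this cut and at these pseudocounts are not given here. In the blocked limma fit with the main settings, 9.42% of all genes were called for SATS against SP. With DESeq2 and the block it was 1 for SP, 1 for 3p, 2 for 5p, 1 for SATS and 2 for SATS against SP (0.813% to 9.36% of all genes in these 5), and with the untreated and luciferase libraries added as controls and the block it was 2, 1, 3 and 1 for SP, 3p, 5p and SATS (1.31% to 10.7%). Without the filter the block called 0. Leaving out 1 library gave counts of 0 to 2 for SP over 3 sets, where it is set 1 that leaves the fit, 0 to 1 for 3p, SATS and SATS against SP, and 0 for the rest. Apart from SP over 3 sets without scr of set 1 (3.03%), the shares of all genes called with 1 library left out are not given. These counts are therefore not results about the members. The causes were not tested.

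Without 1 library, the log2 difference crossed 0 for *Cdkn1a* in SP over 3 sets (−0.14 to 0.81), SP (−0.0755 to 0.80), 5p (−0.15 to 0.80) and SATS against SP (−0.66 to 0.11), for *Perp* in 3p (−0.0930 to 0.52), SATS (−0.0408 to 0.58), 5p against 3p (−0.54 to 0.0459) and SATS against SP (−0.0336 to 0.46), and for *Phlda3* in 5p against 3p (−0.40 to 0.0351). All 15 of these crossings were in fits without the block, where the lone library of a group is from 1 set. In set 1, CPM gave a median of 0.32, as did the table of all sets. Depth limits set 1, where in scr *Perp* rests on 21 reads, *Phlda3* on 36 and *Cdkn1a* on 57.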
